A study of Drosophila melanogaster with 5 samples.

Results

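Chromosome 4 of Drosophila melanogaster, its smallest chromosome, carried 565 annotated transposable element insertions in the deposited count tables. An insertion was counted when the 29 °C table gave it the biotype transposable element and chromosome 4, and all 565 were also present, under the same identifier, in the 25 °C table. They were drawn from 5578 annotated insertions and 24034 features of all kinds in the 29 °C table. The rule used position and annotation only, and no measured value.

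PolyA RNA was sequenced from 5 labelled fly samples, 1 per group. The groups were wild-type flies fed Levodopa at 25 °C and their wild-type control at 25 °C; and, at 29 °C, flies overexpressing histone H1 (H1OE), wild-type flies fed Levodopa, and a wild-type control. Levodopa, the precursor from which cells make dopamine, was given for 7 days at 4 g/L in the diet. H1OE flies came from a mating at 18 °C between an elav driver strain, whose driver is temperature-sensitive and active in neurons, and a strain that overexpresses H1; the progeny were then kept 7 days at 29 °C. The control at 29 °C is labelled wild type with no driver, and its rearing before 29 °C and time there are not stated, so driver, background and rearing are not matched to H1OE by label. The tissue is named both as heads and as brain; ages, sexes and the number of flies pooled are not stated. The series asked which transcripts change with Levodopa feeding and with more histone H1.

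Transposable elements are mobile DNA sequences, most of whose copies in a genome are old and broken. DNA elements such as INE-1 and 1360 moved by cutting and pasting or by related DNA routes, whereas non-LTR elements such as Cr1a and LTR elements such as rooA were copied through RNA. HeT-A and TART are non-LTR elements that fly telomeres use to maintain chromosome ends. Chromosome 4 is packed largely as heterochromatin, marked by methylated histone H3 and bound by HP1a, yet its genes are transcribed, and the protein Pof coats it. Histone H1, the linker histone, is known to take part in silencing transposable elements in flies.

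The insertions belonged to 51 families. INE-1, an ancient element, had 344 copies, 1360 had 59, the fragment family HeT-Tag 23, Cr1a 17 and HeT-A 15. By class, 447 were DNA elements, 47 non-LTR, 25 LTR and 45 telomeric (HeT-A, HeT-Tag and TART), with 1 unclassed. Most were remnants: lengths ran from 6 to 12349 bases with a median of 245, and 212 were shorter than a sequencing read of 150 bases. In dm6 coordinates, which the Ensembl annotation BDGP6.54 gave identically for all 565, they lay between positions 5057 and 1345937. They overlapped genes in 391 cases, spread over 71 host genes, and lay outside annotated genes in 174. Of those in genes, 341 were in introns only and 50 overlapped an exon, which was coding in 3, untranslated in 40 and of a non-coding transcript in 7. The insertion ran in the host's direction in 222 cases and against it in 169.

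Copies of a family can share reads, and reads inside a gene may come from the gene's own transcript in either annotated direction, because no strand setting is given in the sources used here. The annotation describes the reference strain, so an insertion absent from these flies would still be listed. Each value therefore says how many reads were assigned to an annotated span. In bulk samples, fewer cells of a type and less RNA per cell cannot be told apart.

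Library totals were 30074894 and 30334054 counts in the Levodopa columns and 25947583 and 28856401 in the control columns at 25 °C, and 26832877 in H1OE, 25975838 in Levodopa and 24770629 in control at 29 °C. The 25 °C samples have 2 count columns each, whose relation to separate flies is not stated. The columns of a sample varied more than counting noise, which gives a chi-square of about 1 per degree of freedom: its mean was 2.73 in Levodopa and 2.82 in control, over features with at least 20 summed counts. The p-values below therefore reflect column-to-column spread alone, possibly technical, and counting intervals (95%, exact) are too narrow by comparison. At 29 °C there was 1 library per group and no test. The H1 label could not be checked: the 23 annotated H1 genes summed to 0 counts in all 3 libraries at 29 °C. Neuron markers (elav, nSyb, Syt1, brp, para) and eye markers (ninaE, trp, norpA, Arr2) had counts in every column, their sums ranging from 1322 to 2572 CPM and from 45290 to 61430 CPM; CPM here is the count scaled by TMM to a common library size. Fat body and blood protein markers differed most, with sums of 84.4 and 77.8 CPM in Levodopa and 112 and 122 CPM in control at 25 °C, against 423 CPM in H1OE, 3913 CPM in Levodopa and 7109 CPM in control at 29 °C.

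Reads were found on 432 of the 565 insertions, and 133 had 0 counts in every column. Together they held 0.0546 and 0.0543% of all counts in the Levodopa columns at 25 °C and 0.0299 and 0.0304% in control, and 0.0365% in H1OE, 0.0336% in Levodopa and 0.0345% in control at 29 °C. The counts were concentrated: 1 insertion held 8.38% of all counts on chromosome 4 insertions, 10 held 31.0% and 50 held 63.1%. The most counted was Cr1a{}6093 (FBti0064154, 3406 bases, chr4:455789-459194, minus strand), a non-LTR copy outside annotated genes that was chosen for description after its values were seen. It had 1457 and 1589 counts in the Levodopa columns and 753 and 766 in the control columns at 25 °C. At 29 °C it had 798 counts in H1OE, 520 in Levodopa and 523 in control. Both Levodopa columns lay above both control columns at 25 °C, and at 29 °C H1OE lay above the other two libraries. The log2 fold change for Levodopa at 25 °C was 0.72 (SE 0.07), below the 2-fold minimum, and H1OE was 1.35 times control at 29 °C (interval 1.21 to 1.51), also below it.

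CaMKII, which encodes a calcium-dependent protein kinase abundant at synapses, hosted 9 insertions that took 18.5 and 17.6% of the insertion counts in the Levodopa columns and 15.3 and 15.5% in control at 25 °C. At 29 °C their share was 13.6% in H1OE, 13.6% in Levodopa and 14.1% in control. All 9 lie in CaMKII introns. INE-1{}3383 (FBti0061444, 84 bases, chr4:1041513-1041596) had 590 and 534 counts in the Levodopa columns and 230 and 243 in control at 25 °C, and 185 in H1OE, 192 in Levodopa and 119 in control at 29 °C. Per kilobase this was the highest level on the chromosome, 211 CPM per kb in Levodopa and 108 CPM per kb in control at 25 °C, although an insertion this short is covered by reads that also reach into the intron around it.

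INE-1{}3385 (FBti0061446, 541 bases, chr4:1042174-1042714) is a longer copy in the CaMKII introns. It had 936 and 846 counts in the Levodopa columns against 356 and 446 in control at 25 °C. At 29 °C it had 562 counts in H1OE, 474 in Levodopa and 478 in control. The groups were apart at 25 °C and close to each other at 29 °C. INE-1{}3381 (FBti0061442, 1101 bases, chr4:1038710-1039810), described after its values were seen, had 1167 and 1131 counts in Levodopa against 401 and 479 in control at 25 °C, and 282 in H1OE, 342 in Levodopa and 381 in control at 29 °C. It was 1 of the insertions that rose with Levodopa at 25 °C, with a log2 fold change of 1.11 (SE 0.08, edgeR adjusted p = 4.61e-41).

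**Figure D1:**
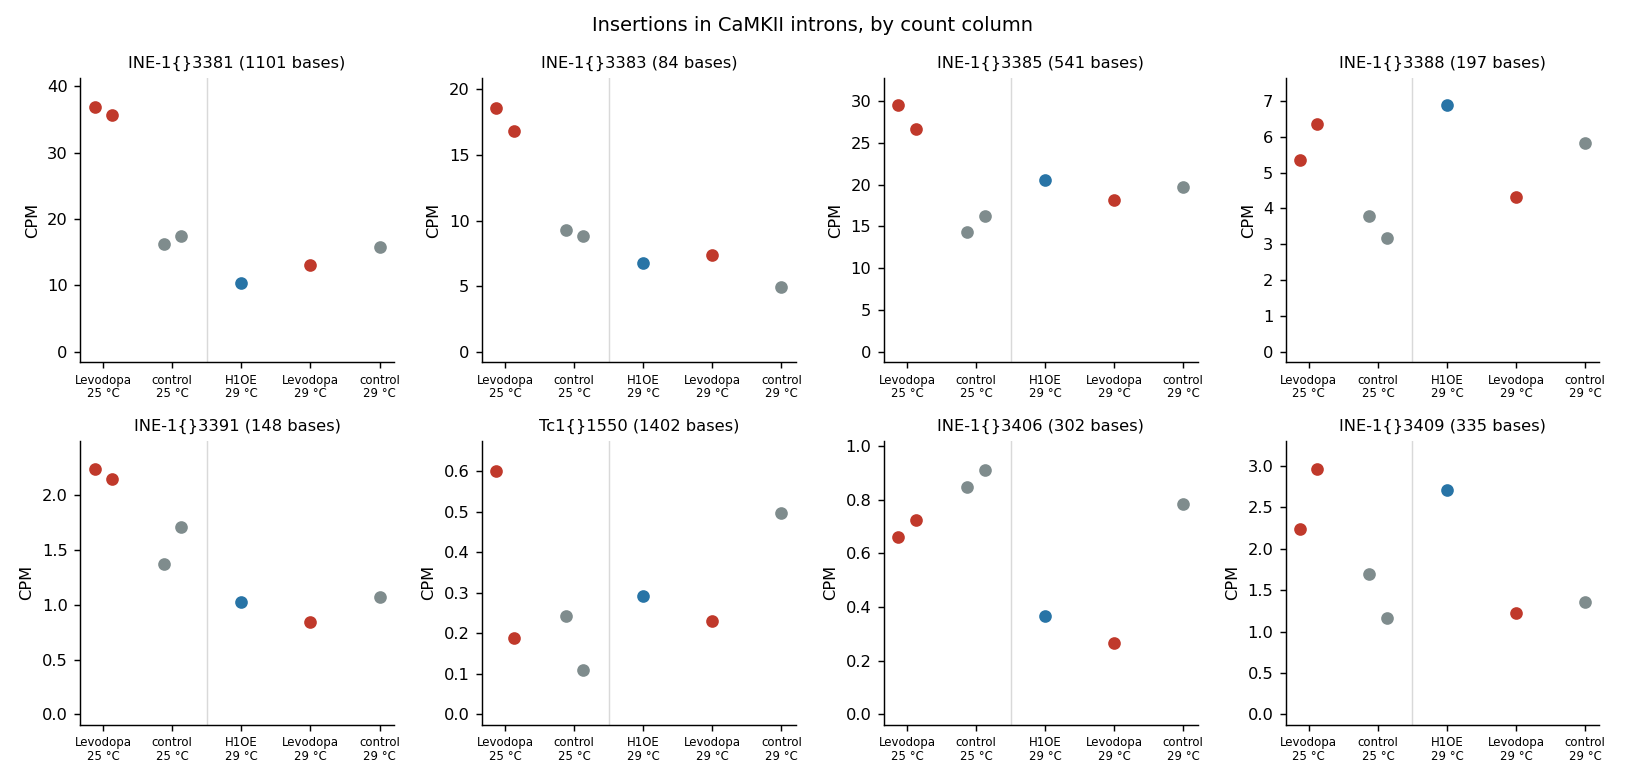
Counts of the 8 CaMKII insertions with at least 10 counts in 1 column, as CPM on TMM-scaled libraries (y, each panel its own linear axis from 0) by group (x); each point is 1 count column, 2 per group at 25 °C and 1 per group at 29 °C. In INE-1{}3381, INE-1{}3383 and INE-1{}3385 both Levodopa columns lie above both control columns at 25 °C, while in INE-1{}3406 both lie below.

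The 12 insertions with the highest level per kilobase among those with at least 50 counts in 1 group were all INE-1 copies in introns, and 8 of them were shorter than a read. Besides 3 in CaMKII, their hosts were Crk, unc-13, PMCA (with 2), Ephrin, CG11155, ey, Cadps and Slip1. Several of these genes work in nerve cells: unc-13 and Cadps prime synaptic vesicles for release, and PMCA pumps calcium out of the cell. Of these 12, FBti0062908 (Crk) and FBti0062058 (Cadps) rose with Levodopa at 25 °C. The copy in Crk, an adaptor of kinase signalling (INE-1{}4847, 54 bases, chr4:211070-211123), had 143 and 137 counts in the Levodopa columns against 49 and 51 in control (log2 fold change 1.2, SE 0.23, edgeR adjusted p = 3.15e-07). At 29 °C it had 25 counts in H1OE, 17 in Levodopa and 30 in control, so the Levodopa library lay on the other side of its control there.

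Levodopa at 25 °C came with more reads on these insertions as a whole. All 565 summed to 16432 and 16464 counts in the Levodopa columns and 7752 and 8762 in the control columns, or 519 ± 0.866 and 316 ± 4.62 CPM (SD, n = 2 columns each). Both Levodopa columns were above both control columns, with a ratio of 1.64 (counting interval 1.61 to 1.67). On total-count library sizes the ratio was 1.81. The mitochondrial genome took 19.2 and 19.98% of counts in the Levodopa columns against 13.0 and 13.2% in control. Neuron markers summed to 1956 and 1953 CPM in Levodopa against 1347 and 1322 CPM in control. All 5 were higher at an edgeR adjusted p under 0.05, with log2 fold changes of 0.34 to 0.62, below the 2-fold minimum. That p threshold alone was met by 6907 of all 11799 features tested. Eye markers summed lower, to 45430 and 45290 CPM in Levodopa against 59290 and 59100 CPM in control. Of these 4 genes, 2 were lower and 1 higher at an edgeR adjusted p under 0.05. Muscle markers (Mhc, up, TpnC4) summed to 1084 and 1073 CPM in Levodopa against 871 and 891 CPM in control. Glia markers (repo, Gs2, Eaat1, nrv2) summed to 1844 and 1831 CPM in Levodopa against 1949 and 1931 CPM in control. Testis markers summed to 117 and 119 CPM in Levodopa against 84.6 and 89.0 CPM in control. The part of any of these in the difference between the groups was not tested.

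Of the 565 insertions, 315 had a higher scaled count in Levodopa, 96 a lower one and 154 had no count in either group at 25 °C. In 190 both Levodopa columns were above both control columns, and in 11 they were below. In the other 364 neither held, and these include the 154 with no count. The same comparison of columns was not made over all features. For the test, 228 insertions had at least 10 counts in 1 column, and the other 337 were too low. With an edgeR adjusted p under 0.05 and a 2-fold change, 36 rose, 15.8% of those tested, and 2 fell; over all 11799 features tested 2.01% rose and 3.14% fell. The median log2 fold change was 0.76, against -0.00 over all features. These 228 had passed the count minimum partly through the group where they were high, so the 36 are not a count over all insertions. When 1 of the 4 columns was left out, 16 to 21 of these 36 were still called.

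The insertions off chromosome 4 did much the same. The 5006 of them in both tables summed to 51768 and 52566 counts in the Levodopa columns and 24868 and 27608 in control, a ratio of 1.64 (1.62 to 1.66). Of 564 tested, 71 rose and 2 fell, with a median of 0.68. The 79 protein-coding genes tested on chromosome 4 had a smaller shift, with 0 rises, 0 falls and a median of 0.52, 70 of them being positive. At an edgeR adjusted p under 0.05 without the fold minimum, 76 of these 79 genes differed. So did 75 of the 228 insertions tested on chromosome 4 and 6907 of all 11799 features tested.

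**Figure D2:**
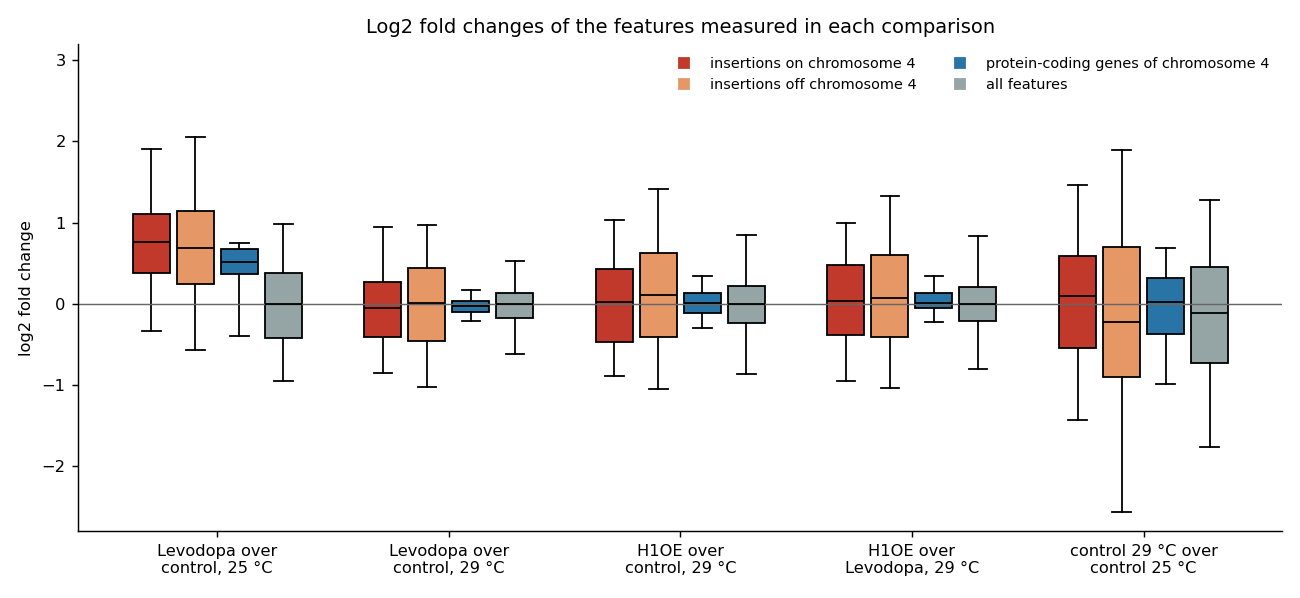
Log2 fold changes (y) of the features measured in each of 5 comparisons (x), for insertions on chromosome 4, insertions off it, protein-coding genes of chromosome 4 and all features; boxes span the quartiles, lines mark medians and whiskers reach the 5th and 95th percentiles. For Levodopa at 25 °C the medians are 0.76, 0.68, 0.52 and -0.00 in that order; in the 3 comparisons within 29 °C all medians lie within 0.11 of 0, and fold changes at 29 °C include 10 added counts.

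By position, intronic insertions had the highest ratio at 25 °C. The 341 in introns only had a summed 346 and 339 CPM in the Levodopa columns against 192 and 198 CPM in control, a ratio of 1.75 (1.71 to 1.79). Those running with the host gene had a ratio of 1.73 (1.67 to 1.79) and those running against it 1.78 (1.72 to 1.84), intervals that overlap. The 174 outside genes had 149 and 156 CPM in Levodopa against 102 and 102 CPM in control, a ratio of 1.498 (1.45 to 1.55), and 1.44 without Cr1a{}6093. The 50 overlapping exons had 23.3 and 25.2 CPM in Levodopa against 18.5 and 19.1 CPM in control, a ratio of 1.29 (1.19 to 1.40). Of the 36 rises, 25 were in introns, 11 were outside genes and 0 overlapped an exon, where 14 were tested. The difference between these positions was not tested.

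By family, INE-1 copies summed to 289 and 280 CPM in Levodopa against 163 and 164 CPM in control at 25 °C (ratio 1.74). The 1360 copies had a ratio of 1.68, and the 17 Cr1a copies one of 1.79, with 6 of 14 tested rising. The LTR class stood at 1.41, with 2 of 13 rising. The telomeric families did not follow: they had 19.8 and 23.0 CPM in Levodopa against 20.6 and 23.0 CPM in control, a ratio of 0.98 (0.91 to 1.06), with 2 rises and 2 falls among 13 tested.

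**Figure D3:**
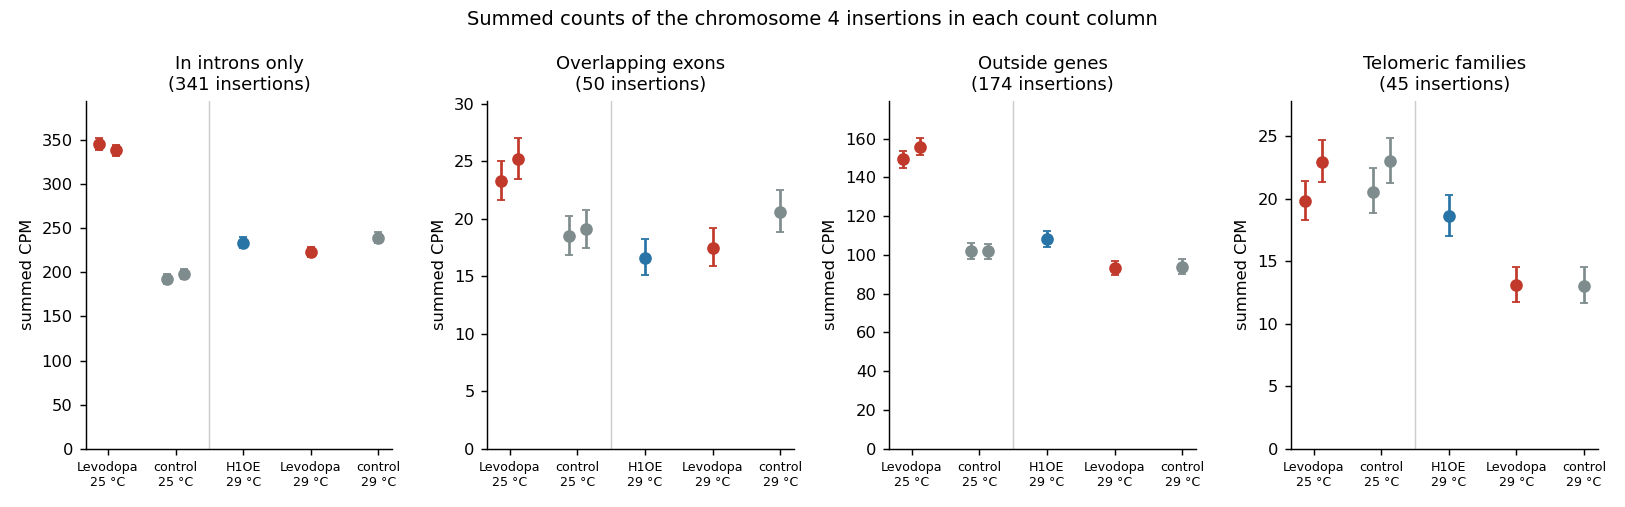
Summed CPM on TMM-scaled libraries (y, linear from 0) of 4 sets of chromosome 4 insertions by group (x); each point is 1 count column with its 95% counting interval, and telomeric insertions are also part of the set outside genes. Levodopa columns lie above control at 25 °C in introns (346 and 339 against 192 and 198), over exons and outside genes, but not in the telomeric families (19.8 and 23.0 against 20.6 and 23.0).

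Among the insertions tested, intronic ones mostly had larger fold changes than their host genes, and those overlapping exons mostly did not. The insertions tested had passed the count minimum partly through the group where they were high, so this does not describe all insertions. Among the 161 tested intronic insertions, in 59 host genes, the median log2 fold change was 0.84, against 0.59 for the hosts, and the insertion stood above its host in 116. Among the 12 tested insertions that overlapped an exon and had a host value, the median was 0.37, against 0.52 for the hosts, and 4 stood above their host. The 25 that rose lay in 18 host genes whose own log2 fold changes ran from 0.11 to 0.85, none of which reached 2-fold. Of all 79 protein-coding genes tested on chromosome 4, 0 rose and 0 fell. CaMKII itself, with 22029 and 22447 counts in the Levodopa columns against 9754 and 10528 in control, had a log2 fold change of 0.85 (SE 0.02). The transcription factor gene toy, an eye and brain regulator whose insertions were picked out after their values were seen, had 5 INE-1 copies among the rises, FBti0061385, FBti0061407, FBti0061408, FBti0061411 and FBti0063494, with log2 fold changes of 1.18, 1.78, 1.07, 1.86 and 1.34. The toy gene had 3974 and 3963 counts in Levodopa against 1885 and 2182 in control (log2 fold change 0.69, SE 0.04). The host genes' part in the insertion reads was not tested.

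**Figure D4:**
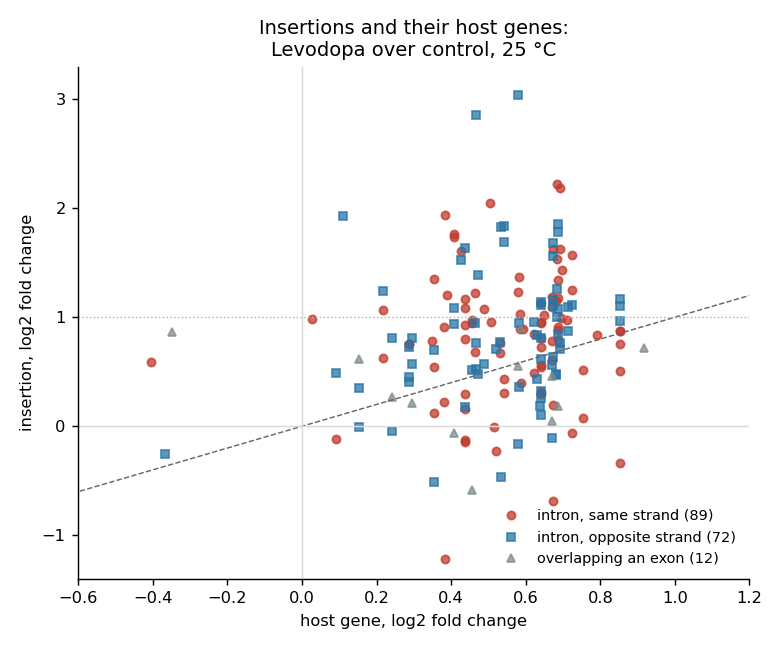
Log2 fold change of each insertion tested inside a gene (y) against that of its host gene (x), Levodopa over control at 25 °C; circles are intronic insertions in the host's direction, squares intronic insertions against it and triangles insertions overlapping an exon. The dashed line marks equal change and the dotted line 2-fold. Of 161 intronic insertions 116 lie above equality, but insertions passed the count minimum partly through the group where they were high.

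The largest rises at 25 °C were on insertions with few reads in control, and some passed the count minimum through Levodopa columns alone. HB{}4796 (FBti0062857, a DNA element of 1221 bases in an Ank intron, chr4:124037-125257) had 14 and 8 counts in the Levodopa columns against 1 and 1 in control (log2 fold change 3.04, SE 1.25, edgeR adjusted p = 0.0265). At 29 °C it had 6 counts in H1OE, 3 in Levodopa and 3 in control. Its host Ank, which encodes an ankyrin that ties membrane proteins to the cell skeleton, had a log2 fold change of 0.58 (SE 0.03).

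A jockey copy (FBti0064176, non-LTR, 886 bases, chr4:711351-712236) lies in an intron of ey, the eye development gene eyeless. It had 26 and 20 counts in Levodopa against 4 and 1 in control at 25 °C (log2 fold change 2.86, SE 0.84, edgeR adjusted p = 0.0015), and ey had 0.47 (SE 0.07). At 29 °C it had 27 counts in H1OE, 13 in Levodopa and 12 in control. The groups did not overlap at 25 °C, whereas Levodopa and control were 1 count apart at 29 °C.

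Cr1a{}4777 (FBti0062838, 223 bases, chr4:63158-63380), outside genes, had 9 and 32 counts in the Levodopa columns against 0 and 6 in control (log2 fold change 2.46, SE 0.84, edgeR adjusted p = 0.0067). INE-1{}3975 (FBti0062036, 444 bases, chr4:1228012-1228455) in an intron of the kinase gene Dyrk3 had 47 and 47 counts against 4 and 13 (2.18, SE 0.51, edgeR adjusted p = 4.5e-05), while Dyrk3 had 0.69 (SE 0.04). The columns of each group were less even for the Cr1a copy than for the INE-1 copy. INE-1{}3380 (FBti0061441, chr4:1031278-1031394) in a CG11076 intron had 20 and 18 counts in Levodopa against 6 and 2 in control (1.93, SE 0.81, edgeR adjusted p = 0.0302), with its host at 0.11 (SE 0.06).

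Telomeric insertions gave both falls at 25 °C. HeT-A{}1685 (FBti0059746, 2939 bases, chr4:1274638-1277576) had 3 and 2 counts in the Levodopa columns against 16 and 5 in control (log2 fold change -2.31, SE 1.03, edgeR adjusted p = 0.0437). It passed the count minimum through 1 control column alone. TART-A{}6261 (FBti0102104, 12349 bases, chr4:1320141-1332489), the longest insertion on the chromosome, had 25 and 50 counts in Levodopa against 16 and 149 in control. Its groups overlapped, and its call (-1.38, SE 0.29, edgeR adjusted p = 5.12e-06) rested on 1 control column; without that column the log2 fold change was 0.87 with an adjusted p of 0.313. The short HeT-A{}6281 (FBti0114507, 20 bases, chr4:1272114-1272133) rose, with 14 and 15 counts in Levodopa against 4 and 1 in control (2.2, SE 0.97, edgeR adjusted p = 0.0399). It passed the count minimum through the Levodopa columns alone. HeT-A{}6274 (FBti0102117), the other telomeric rise, had 44 and 45 counts in Levodopa against 21 and 15 in control (1.02). The second longest insertion, TART-A{}6259 (FBti0102102, 12306 bases), had 3 and 15 counts in Levodopa against 0 and 9 in control, and the third, Tirant{}1524 (FBti0019495, 8526 bases), had 1 count in all columns together.

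At 29 °C the Levodopa library did not lie above control. The 565 insertions summed to 8715 counts (334 CPM) in Levodopa and 8556 counts (354 CPM) in control, a ratio of 0.94 (0.92 to 0.97), and 0.97 on total-count library sizes. A scaled count was higher in Levodopa for 188 insertions and lower for 177, with 200 at 0 in both libraries. By the size rule used at 29 °C, a 2-fold difference after 10 counts were added to both libraries with at least 10 counts in 1 of them, 10 of 194 insertions rose and 8 fell. These were 5.2% and 4.1% of the insertions compared, while over all 11145 features compared 1.15% rose and 1.5% fell. Insertions could pass the count minimum through the library where they were high, so these are not shares of all insertions. At least 50 counts in 1 library were reached by 56 of the 194 insertions, but by 9037 of the 11145 features. The median log2 fold change was -0.05 for the insertions and -0.00 for all features. Insertions off chromosome 4, measured the same way, gave 18 rises and 24 falls of 426, and 0 host genes of the insertions that passed did so themselves.

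Among the rises at 29 °C was Doc3{}Kif3C[1555] (FBti0019515, non-LTR, 2592 bases, chr4:1153148-1155739), in an intron of CG32017, with 64 counts in Levodopa and 19 in control, a ratio of 3.12 (1.85 to 5.52). H1OE lay between them with 47 counts. At 25 °C the same insertion had 29 and 22 counts in Levodopa against 42 and 25 in control, with a log2 fold change of -0.68 (SE 0.43) that missed the threshold. Cr1a{}1563 (FBti0019519, 3897 bases, chr4:1175386-1179282) in an intron of pho, a gene of a Polycomb DNA-binding protein, had 28 counts in Levodopa and 6 in control (ratio 4.32, 1.76 to 12.8). INE-1{}3978 (FBti0062039, 77 bases) in a Cadps intron had 40 counts in Levodopa and 12 in control (3.09, 1.59 to 6.47).

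The other named rises at 29 °C rested on fewer reads. INE-1{}5342 (FBti0063403) in a Syt7 intron had 13 counts in Levodopa and 0 in control, at least 4.01-fold higher with 3 counts in place of 0. INE-1{}4863 (FBti0062924) over an exon of CG1674 and Bari2{}1537 (FBti0020436) in an unc-13 intron each had 14 counts in Levodopa and 1 in control, a ratio of 13.0 (1.97 to 548). Intervals this wide show how little 14 reads fix a ratio.

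Among the falls at 29 °C, a pair of neighbouring INE-1 copies in Cadps introns led. INE-1{}3993 (FBti0062054, 134 bases, chr4:1252868-1253001) had 16 counts in Levodopa and 61 in control, a ratio of 0.24 (0.13 to 0.43). INE-1{}3992 (FBti0062053, 97 bases, chr4:1252709-1252805) had 2 counts in Levodopa and 19 in control, a ratio of 0.10 (0.01 to 0.40). At 25 °C their counts were 24 and 24 in Levodopa against 18 and 2 in control for the first, and 27 and 31 against 15 and 16 for the second, so neither was lower in Levodopa there. INE-1{}5936 (FBti0063997, in Asator), INE-1{}3349 (FBti0061410, in toy) and INE-1{}5440 (FBti0063501, in fuss) had 0 counts in Levodopa and 14, 12 and 11 in control, at least 5.04-, 4.32- and 3.96-fold lower. McClintock{}1478 (FBti0020402, an LTR element of 6438 bases, chr4:13649-20086) had 2 counts in Levodopa and 16 in control, 8.63-fold lower (2.03 to 77.4).

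In H1OE the insertions as a whole stood near the 29 °C control. They summed to 9804 counts (359 CPM) in H1OE and 8556 counts (354 CPM) in control, a ratio of 1.01 (0.99 to 1.04). Intronic insertions had 234 CPM in H1OE and 239 CPM in control (ratio 0.98), whereas those outside genes had 108 CPM in H1OE and 93.8 CPM in control (1.15, 1.09 to 1.22). By the size rule 13 of 197 insertions rose, 6.6%, and 4 fell; over all 11340 features 3.38% rose and 3.74% fell. Off chromosome 4, 61 of 466 insertions rose, 13.1%, and 33 fell. Here too insertions could pass the count minimum through the library where they were high, so these are not shares of all insertions. The median log2 fold change was 0.03 on chromosome 4 and 0.11 off it. Fat body markers summed to 423 CPM in H1OE and 7109 CPM in control, and germ line markers to 7.76 CPM in H1OE and 4.96 CPM in control. Of 8 germ line markers 5 were measured and 1 rose. Their log2 fold changes ran from -0.58 to 1.96 with a median of 0.18. Glia markers summed to 1969 CPM in H1OE and 2481 CPM in control, with log2 fold changes of -0.48 to -0.26. Neuron markers summed to 2572 CPM in H1OE and 2341 CPM in control, and testis markers to 72.0 and 66.5 CPM. The part of any of these marker sets was not tested.

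Telomeric elements gave 3 of the 13 rises in H1OE and 0 of the falls. Only 7 telomeric insertions had enough counts for the size rule, all of them HeT-A copies. The 45 telomeric insertions summed to 508 counts (18.6 CPM) in H1OE, 342 (13.1 CPM) in Levodopa and 316 (13.1 CPM) in control at 29 °C. H1OE was 1.42 times control (1.23 to 1.64), and 1.23 times (1.05 to 1.43) without HeT-A{}6262. That copy (FBti0102105, 5799 bases, chr4:1314342-1320140, minus strand) had 98 counts in H1OE, 20 in Levodopa and 20 in control, a ratio of 4.34 over control (2.66 to 7.41). The columns at 25 °C had more: 132 and 164 counts in Levodopa and 116 and 121 in control.

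The other telomeric rises in H1OE were HeT-A{}6268 and HeT-A{}6274. HeT-A{}6268 (FBti0102111, 5917 bases, chr4:1301834-1307750) had 124 counts in H1OE, 57 in Levodopa and 49 in control at 29 °C, a ratio of 2.24 over control (1.60 to 3.19), and 179 and 145 in Levodopa and 114 and 126 in control at 25 °C. HeT-A{}6274 (FBti0102117, 5845 bases, chr4:1289099-1294943) had 18 counts in H1OE, 1 in Levodopa and 3 in control (5.31, 1.55 to 28.1), and 44 and 45 in Levodopa and 21 and 15 in control at 25 °C. Not every HeT-A copy rose; HeT-A{}6268 and the copies that follow were picked out after their values were seen. HeT-A{}6270 (FBti0102113, 1974 bases, chr4:1295016-1296989), between them, had 34 counts in H1OE, 51 in Levodopa and 68 in control, a ratio of 0.44 over control (0.28 to 0.68) that missed the size rule. HeT-A{}6276 (FBti0102119) had 91 counts in H1OE, 99 in Levodopa and 79 in control. HeT-A copies are alike, so reads may move between them, and which copies these flies carry was not tested.

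**Figure D5:**
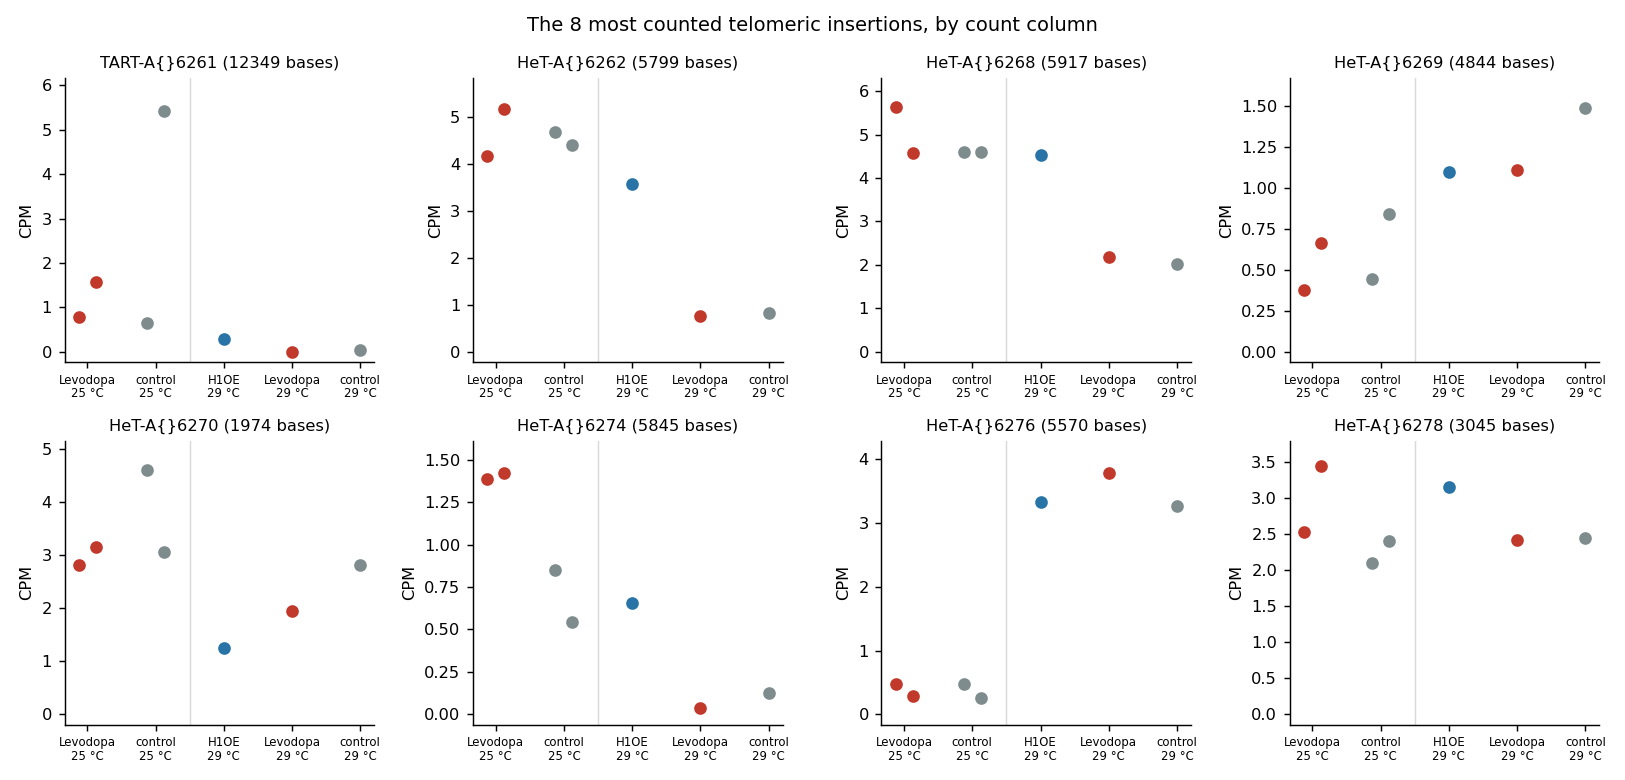
CPM on TMM-scaled libraries (y, each panel its own linear axis) of the 8 most counted telomeric insertions by group (x); each point is 1 count column. HeT-A{}6262, HeT-A{}6268 and HeT-A{}6274 are lowest in Levodopa and control at 29 °C and higher in H1OE, HeT-A{}6276 is high in all 3 libraries at 29 °C, and the control columns of TART-A{}6261 at 25 °C lie far apart.

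The other named rises in H1OE were single copies. INE-1{}6118 (FBti0064179, 77 bases, outside genes) had 24 counts in H1OE and 3 in control, 7.08-fold (2.15 to 36.7), and 18 in Levodopa at 29 °C. INE-1{}2901 (FBti0060962), in an intron of the translation repressor gene 4E-T, had 29 counts in H1OE and 5 in control, 5.13-fold (1.97 to 17.0), while Levodopa had 7. Against 0 counts in control, INE-1{}5342 (FBti0063403) had 15 counts in H1OE, HB{}2849 (FBti0060910, in an fd102C intron) 15 and INE-1{}3379 (FBti0061440, in a PlexA intron) 13, at least 4.42-, 4.42- and 3.83-fold higher. Only INE-1{}5342 of these 3 was also high in Levodopa, with 13 counts.

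The 4 falls in H1OE were G6{}6112, INE-1{}3938, Cr1a{}4571 and INE-1{}3993. G6{}6112 (FBti0064173, 87 bases, chr4:435224-435310, outside genes) had 5 counts in H1OE and 27 in control, 6.10-fold lower (2.32 to 20.3), with 32 in Levodopa. INE-1{}3938 (FBti0061999, in a CG11155 intron) had 5 in H1OE, 8 in Levodopa and 26 in control, so both were lower, 5.88-fold in H1OE. Cr1a{}4571 (FBti0062632, in a Dyrk3 intron) had 4 counts in H1OE and 17 in control, 4.80-fold lower. INE-1{}3993 (FBti0062054) had 29 in H1OE, 16 in Levodopa and 61 in control, 2.38-fold lower in H1OE. Of the host genes of these insertions 0 passed; CG11155, which encodes a glutamate receptor subunit, had a log2 fold change of -0.39.

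H1OE and Levodopa at 29 °C differ in genotype and treatment at once. Of 198 insertions compared, 10 rose and 10 fell in H1OE over Levodopa, 5.05% each way, while 3.18% of all 11364 features rose and 3.14% fell. Off chromosome 4, 56 of 478 insertions rose, 11.7%, and 34 fell, 7.11%. The same limit of the count minimum holds for these shares. On chromosome 4 the median was 0.03 and the ratio of sums 1.07 (1.04 to 1.11). The largest rise was again HeT-A{}6262, at 4.68-fold (2.87 to 8.0), with HeT-A{}6274 also among them. INE-1{}5323 (FBti0063384, 48 bases, in an NfI intron) had 45 counts in H1OE and 11 in Levodopa, 3.91-fold (1.99 to 8.38), INE-1{}3324 (FBti0061385, in toy) 42 and 12, 3.34-fold (1.73 to 6.98), and INE-1{}4857 (FBti0062918, in CG31999) 33 and 6, 5.25-fold (2.17 to 15.3). INE-1{}1939 (FBti0060000), in an intron of the glutamate receptor gene Ekar, had 17 counts in H1OE and 0 in Levodopa, at least 5.41-fold higher.

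Of the falls over Levodopa, INE-1{}3410 (FBti0061471, 488 bases, chr4:1061502-1061989) lies in an intron of apolpp, the lipoprotein gene of the fat body. It had 40 counts in H1OE, 104 in Levodopa and 79 in control, 2.72-fold lower than Levodopa (1.87 to 4.02). The apolpp gene had 91892 counts in H1OE, 157114 in Levodopa and 151190 in control (log2 fold change -0.84 over Levodopa), so this insertion and its host were both lowest in H1OE, as was the sum of the fat body markers. The other apolpp insertion with reads, S{}1551 (FBti0019512), had 11 counts in H1OE, 8 in Levodopa and 2 in control. G6{}6112 (FBti0064173) was 6.70-fold lower than in Levodopa. INE-1{}4863 (FBti0062924) and INE-1{}5540 (FBti0063601) had 0 counts in H1OE and 14 and 15 in Levodopa, at least 4.88- and 5.23-fold lower. The 1360{}5308 copy in Ank (FBti0063369) had 5 counts in H1OE and 27 in Levodopa, and Tc1-2{}5455 in CG31999 (FBti0063516) 1 and 15.

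The controls at 29 and 25 °C come from separate tables, so temperature, batch and fly stock cannot be told apart. Their summed levels were close, 8556 counts at 29 °C against 16514 over the 2 columns at 25 °C, a ratio of 1.03 (1.0 to 1.05), or 1.15 on total-count library sizes; off chromosome 4 the ratio was 0.60. Among single insertions, 25 of 217 rose at 29 °C, 11.5%, and 24 fell, 11.1%. Over all 12008 features 9.01% rose and 16.3% fell. Off chromosome 4, 19.3% of 602 insertions rose and 21.6% fell. The same limit of the count minimum holds for these shares. Telomeric insertions had a ratio of 0.55 (0.48 to 0.62), with 1 rise and 6 falls among 11. HeT-A{}6262 had 20 counts at 29 °C against 116 and 121 at 25 °C, 5.97-fold lower, and TART-A{}6261 had 1 against 16 and 149. HeT-A{}6276 (FBti0102119, 5570 bases, chr4:1282540-1288109) went the other way, with 79 counts at 29 °C against 12 and 7 at 25 °C, 8.25-fold higher (4.95 to 14.4).

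The single copies that differed between these controls included LTR and non-LTR elements. The rooA{}1506 copy (FBti0020417, LTR, 2498 bases, chr4:344055-346552) in a PMCA intron had 74 counts in the 29 °C control against 6 and 6 at 25 °C, 12.2-fold (6.60 to 24.8). At 29 °C H1OE had 52 and Levodopa 94, so all 3 libraries were high. F{}5373 (FBti0063434, in CG31999) had 78 against 5 and 11, 9.67-fold. INE-1{}3320 and INE-1{}3309 (FBti0061381 and FBti0061370) outside genes, had 66 against 6 and 10, and 32 against 4 and 4. In the other direction, Stalker2{}1505 (FBti0020416, LTR, 8119 bases, chr4:320044-328162), over an exon of CG32850, had 24 counts at 29 °C against 101 and 115 at 25 °C, 4.54-fold lower (2.97 to 7.23). It had 14 in H1OE and 24 in Levodopa at 29 °C. The mariner2{}1523 copy (FBti0020428) had 17 against 61 and 93, TART-A{}4601 (FBti0062662) 1 against 23 and 20, and INE-1{}3321 (FBti0061382) 0 against 22 and 16, at least 6.38-fold lower.

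Genes that silence transposable elements or bind chromosome 4 moved in both directions, with 1 past the 2-fold minimum. Of 60 listed genes, 23 of them H1 copies, 33 were measured for Levodopa at 25 °C. Of these 1 rose, 0 fell and the median log2 fold change was 0.21. Over all 11799 features tested 2.01% rose and 3.14% fell. Without the fold minimum, 6907 of all 11799 features had an edgeR adjusted p under 0.05. Of the listed genes, 13 were higher and 5 lower at that threshold. The largest of these shifts below 2-fold were G9a, a histone methyltransferase gene, at 0.70 (SE 0.07), Hers at 0.70 (SE 0.05) and HP1c, a relative of the HP1a gene, at -0.72 (SE 0.09). The riser was del, a germ line piRNA factor, with 216 and 195 counts in Levodopa against 90 and 76 in control (1.02, SE 0.18, edgeR adjusted p = 4.76e-08). Pof had 487 and 516 counts in Levodopa against 343 and 338 in control (0.28, SE 0.11), the HP1a gene 1958 and 1894 against 1718 and 1862 (-0.17, SE 0.05), and egg, the methyltransferase that marks chromosome 4, 702 and 791 against 623 and 721 (-0.13, SE 0.08). The small RNA genes Dcr-2 and AGO2 had 0.44 (SE 0.07) and 0.21 (SE 0.03), and piwi, the germ line silencer, had 11 and 20 counts against 12 and 7. Of these genes del alone reached 2-fold.

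At 29 °C 0 of 31 measured genes of that list passed for Levodopa (median 0.09) and 0 of 30 for H1OE (median 0.08). Pof had 308 counts in H1OE, 295 in Levodopa and 290 in control, the HP1a gene had 1419, 1400 and 1550, and egg 809, 884 and 807. For H1OE over Levodopa 1 of 31 rose, piwi, with 36 counts in H1OE and 11 in Levodopa. Between the controls 3 of 33 rose, Dcr-2, Hers and piwi, and 2 fell, BigH1 and rhi. Over all features 3.18% rose for H1OE over Levodopa, and 9.01% rose and 16.3% fell between the controls.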

How the data were processed

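The authors deposited raw read counts per annotated feature, in 1 table for 25 °C and 1 for 29 °C; FPKM tables were not used. Reads were aligned with HISAT2 2.2.1 to dm6, per the submitters' processing notes; the counter, its strand setting and its handling of multiply mapped reads are not given in the sources used here. Besides these samples, the deposited 29 °C table held 2 count columns of no sample analysed here. Insertions were matched by identifier to the Ensembl annotation BDGP6.54 for names, exons and hosts.

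Counts were scaled by TMM in edgeR 4.0.16 (R 4.3.3). At 25 °C features with at least 10 counts in 1 column were tested with edgeR's quasi-likelihood test on all features, Benjamini-Hochberg adjusted, and called at an adjusted p under 0.05 with a 2-fold change; the fit's common biological coefficient of variation was 2.87%. The columns of a sample were treated as libraries. At 29 °C, with 1 library a group, features past 2-fold after 10 counts were added at the mean library size are given without a test, and printed ratios are of scaled counts without added counts. A 0 was set to 3 counts per library for bounds. The script was tested on simulated counts. Members and lists were chosen with earlier results of these data known. Named insertions were the 12 highest per kilobase with at least 50 counts in 1 group, the 3 longest, and per comparison up to 6 in each direction by size of change; others are marked as chosen afterwards. Alternatives were DESeq2 1.42.0, total-count scaling, other count minimums, 3 added counts, a length correction, the column number as a block and leaving out columns.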

Additional observations from a re-analysis of the deposited data

Results flagged for a closer look

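In 10 flagged results the Levodopa library lay below its control at 29 °C, while both Levodopa columns lay above both control columns at 25 °C. These are not all the results with that pattern. INE-1{}3381 (FBti0061442) shared it, with a log2 fold change of -0.26 at 29 °C. Of the 194 insertions compared at 29 °C, 102 had a negative log2 fold change for Levodopa. For the flagged results the values were as follows. The 29 °C ratio of Levodopa over control was 0.944 for the sum of all insertions and 0.926 for those inside genes. Among single insertions it was 0.525 for FBti0062908 (Crk), 0.743 for FBti0061449 (CaMKII), 0.243 for FBti0062054 and 0.0975 for FBti0062053 (both Cadps), 0.285 for FBti0061999 (CG11155), 0.412 for FBti0061385 (toy) and 0.570 for FBti0063434 (CG31999). FBti0063997 (Asator) had 0 counts in Levodopa, a ratio of 0. The difference between the temperatures was not tested, since 29 °C had 1 library per group.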

How the results depend on the processing

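For Levodopa at 25 °C, where 36 insertions rose and 2 fell, DESeq2 gave 25 and 0 (24 of the 25 rises shared), total-count scaling 55 and 1, no count minimum 32 and 0, a minimum of 50 counts 22 and 1, and a minimum on the mean, chosen after seeing the data, 41 and 1. Leaving out 1 column gave 24 to 34 rises and 0 to 1 falls, and 19, 19, 21 and 16 of the 36 rises were shared when Levodopa column 1, Levodopa column 2, control column 1 and control column 2 were left out. With the trend of fold change on feature length removed, 39 rose and 2 fell, 27 of the 36 rises were shared, and the medians were 0.56 for the insertions and 0.25 for protein-coding genes of chromosome 4, against 0.76 and 0.52 before. At 29 °C a minimum of 50 counts left 2 rises and 1 fall for Levodopa, 3 and 1 for H1OE, 2 and 1 for H1OE over Levodopa, and 9 and 10 between the controls. With 3 counts added these were 22 and 18, 29 and 22, 25 and 19, and 39 and 44. At 29 °C the length correction gave 11 and 5 for Levodopa, 14 and 2 for H1OE, and 10 and 12 for H1OE over Levodopa. A minimum on the mean gave 5 and 3, 8 and 4, and 7 and 6 for the 3 comparisons within 29 °C. The count minimums change how many insertions enter; for the settings that tested the same insertions, the cause was not tested. TART-A{}6261 had log2 fold changes of -2.19 to 0.87 when 1 column was left out.

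On total-count library sizes all insertions summed to 544.6 CPM in Levodopa and 301.2 CPM in control at 25 °C, and 345.4 CPM in control at 29 °C; those outside genes summed to 160.1 CPM in Levodopa and 97.1 CPM in control at 25 °C. Without Cr1a{}6093, the sums of all insertions were 471 CPM in Levodopa and 286.9 CPM in control at 25 °C, and 329.5 CPM in H1OE, 313.9 CPM in Levodopa and 332.1 CPM in control at 29 °C. Outside genes they were 104.5, 72.73, 78.95, 73.19 and 72.21 CPM in the same order. Of the other values of named insertions, 301 kept their call and direction and 33 lost the call.

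The sample labels give no replicate numbers, but the 25 °C count columns are numbered 1 and 2 in both groups. Same-numbered columns did not deviate together (r = -0.02 across the 11799 features tested, which are not independent replicates), so the numbers were not taken to pair the columns. With the column number as a replicate block, added after seeing the data, 38 rose and 1 fell, with 34 of the 36 rises shared; HeT-A{}1685 lost its call. Depth limits single insertions: on total-count library sizes, not TMM-scaled ones, a count of 0 allows up to 0.0989 to 0.121 CPM. Intervals cover counting error only.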
